A study of Mus musculus with 4 samples.

Results

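Interferon-responsive microglia were taken here as barcodes that carried RNA of both kinds: at least 3 UMIs (unique molecular identifiers, 1 per captured RNA molecule) of the microglia genes P2ry12, Tmem119, Siglech and Gpr34, and at least 3 UMIs of the interferon-induced genes Ifit1, Ifit2, Ifit3, Isg15 and Rsad2. Barcodes were left out above 3 UMIs of disease-associated genes (Cst7, Lpl, Spp1, Gpnmb and Itgax), 2 of cytokines (Tnf, Il1a and Il1b), 2 of oligodendrocyte genes (Mog and Mag), 2 of astrocyte genes (Slc1a2 and Aqp4) and 1 of the endothelial gene Cldn5, or with any UMI of Hmga2, the exclusion aimed at tumour cells. Hmga2 was not limited to libraries with tumour: 18 and 6 microglia of the young and old sham libraries failed on it alone, against 32 and 3 with tumour. With or without another exclusion, failures on it among microglia with at least 3 interferon-gene UMIs were most frequent in the young tumour library, as given further on. The rule found 207 cells among 13665 microglia (all barcodes with at least 3 UMIs of the 4 microglia genes), of 44503 barcodes that passed the cell filters and 46097 in all. There were 23 such cells in the young sham library, 77 in the young tumour library, 47 in the old sham library and 60 in the old tumour library. The gene counts that chose the cells came from these same data, so the levels of the 5 interferon genes and every comparison of these cells with other microglia are given as description only. Of the 207, 85 carried little RNA of homeostatic microglia genes (under 2% of UMIs in a list of them). The set is therefore called the interferon-marker cells, and the 122 cells at 2% or more the microglia-rich interferon-marker cells.

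The study profiled single cells from the brain hemisphere opposite an intracranial injection in C57BL/6 mice, a strain the labels write with a different last digit for each sample. Mice 8 or 93 weeks old received 1000 cells of CT2A-GFP-luc (glioma cells of mouse origin that carry GFP and luciferase) or PBS (sham), and tissue was taken 2 weeks later. The 4 libraries are young sham (8 weeks, PBS), young tumour (8 weeks, CT2A-GFP-luc), old sham (93 weeks, PBS) and old tumour (93 weeks, CT2A-GFP-luc), and values below follow that order where no other is named. Each group is 1 library, and how many mice went into a library is not given in the sources used here, so no test between groups was possible and every interval below covers counting error only. All 4 groups share the injection, the adult brain dissociation kit and the droplet chemistry, and the tissue is not the injected side.

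Type I interferons signal through the receptor subunits IFNAR1 and IFNAR2 to a complex that holds STAT2 and IRF9 and binds the interferon-stimulated response element in the promoters of antiviral genes. Interferon gamma, made mainly by T and NK cells, signals through its own receptor and is a strong inducer of MHC genes. Microglia that express many of these genes at once are known in the ageing brain and around amyloid and infection.

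Total UMIs ran from 62726818 to 76652484 per library over 10665 to 12070 barcodes. The interferon-marker cells had median UMI counts of 4339, 8725, 4799 and 6232, against 3577, 3129.5, 4136 and 4425 in other microglia that passed the same exclusions. The Scrublet caller, which scores likely doublets, marked 1, 7, 7 and 10 of the interferon-marker cells (4.35%, 9.09%, 14.9% and 16.7%), against 5.57%, 3.44%, 2.24% and 3.01% of the other microglia; they were kept, and removed in an alternative. Of 44293 distinct barcodes kept, 210 occurred in more than 1 library, and no barcode was an interferon-marker cell in more than 1.

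The 5 interferon genes of the rule lie in 3 places on mouse build GRCm38 (mm10), and 3 of them are neighbours: Ifit2 at chr19:34550694-34576419, Ifit3 at chr19:34583531-34588731 and Ifit1 at chr19:34640871-34650009, all on the plus strand. Isg15 is at chr4:156199424-156200818 and Rsad2 at chr12:26442746-26456452, both on the minus strand. Ifit1, Ifit2 and Ifit3 encode tetratricopeptide proteins that bind foreign RNA, Isg15 a ubiquitin-like modifier, and Rsad2 viperin, an antiviral radical-SAM enzyme. RefSeq promoter windows of GRCm38.p6, 250 bases before to 50 after each gene's start, were searched on both strands for the core of the interferon-stimulated response element, which is GAAA, any 2 bases and GAAA again (TTTC, any 2 bases and TTTC on the other strand). It was present for 4 of the 5 rule genes, the exception being Ifit2 in either of its 2 windows, and in 1131 of all 32851 windows (3.44%). The 250 bases before the start are shown 5′ to 3′ on the gene's own strand for those 4 genes, and for Oas3 and Slfn5, which were not in the rule and are described further on; capitals mark the matches.
Isg15, chr4:156200819-156201068, minus strand: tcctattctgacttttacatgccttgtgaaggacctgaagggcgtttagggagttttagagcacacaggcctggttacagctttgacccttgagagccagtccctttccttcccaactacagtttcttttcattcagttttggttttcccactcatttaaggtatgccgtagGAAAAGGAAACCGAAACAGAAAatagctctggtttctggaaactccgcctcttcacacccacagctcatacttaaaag
Ifit1, chr19:34640639-34640888, plus strand: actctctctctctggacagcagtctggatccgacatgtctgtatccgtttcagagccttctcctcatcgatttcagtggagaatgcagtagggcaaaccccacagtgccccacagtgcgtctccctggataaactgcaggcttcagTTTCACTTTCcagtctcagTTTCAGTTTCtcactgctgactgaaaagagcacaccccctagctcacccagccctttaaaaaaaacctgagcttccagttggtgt
Ifit3, chr19:34583279-34583528, plus strand: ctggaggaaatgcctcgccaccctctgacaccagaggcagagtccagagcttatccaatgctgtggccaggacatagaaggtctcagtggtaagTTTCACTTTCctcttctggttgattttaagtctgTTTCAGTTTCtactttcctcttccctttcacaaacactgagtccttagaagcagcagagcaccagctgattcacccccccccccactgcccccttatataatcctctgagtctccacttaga
Rsad2, chr12:26456453-26456702, minus strand: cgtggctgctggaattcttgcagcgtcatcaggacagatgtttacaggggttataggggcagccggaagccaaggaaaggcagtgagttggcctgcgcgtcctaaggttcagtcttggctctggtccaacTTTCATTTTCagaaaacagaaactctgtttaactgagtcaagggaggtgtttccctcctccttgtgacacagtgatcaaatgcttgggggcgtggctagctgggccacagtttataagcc
Oas3, chr5:120777660-120777909, minus strand: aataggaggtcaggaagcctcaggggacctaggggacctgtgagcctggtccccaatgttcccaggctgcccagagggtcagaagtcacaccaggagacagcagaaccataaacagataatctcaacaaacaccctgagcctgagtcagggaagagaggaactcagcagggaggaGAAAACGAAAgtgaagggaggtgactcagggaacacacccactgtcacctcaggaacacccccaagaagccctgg
Slfn5, chr11:82951852-82952101, plus strand: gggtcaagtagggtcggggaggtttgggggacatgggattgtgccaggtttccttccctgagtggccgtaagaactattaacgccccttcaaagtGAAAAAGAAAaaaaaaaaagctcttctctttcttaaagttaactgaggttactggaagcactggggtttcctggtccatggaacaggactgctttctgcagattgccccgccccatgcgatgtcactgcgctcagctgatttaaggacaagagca
Isg15 held 3 overlapping matches, starting 78, 72 and 66 bases before the start and visible as 1 long run of capitals. Ifit1 held 2, at 104 and 85 bases before, and Ifit3 2, at 156 and 122 bases before. Rsad2, Oas3 and Slfn5 held 1 each, at 120, 75 and 155 bases before. The 250 bases before the start of Ifit3b, a near copy of Ifit3 that was not in the rule, share an unbroken run of 169 bases with those of Ifit3. Whether reads of the genes themselves are split between these neighbours was not tested. By gene, 1079 of 27025 with a window (3.99%) had a match in at least 1 window. Among 44 of 54 other type I interferon-induced genes with a window, 19 (43.2%) had a match, as did 9 of 10 interferon-induced GTPases, 5 of 17 MHC class I presentation genes, 0 of 7 MHC class II presentation genes and 1 of 13 homeostatic microglia genes. Of the 25 genes ranked highest against other microglia, described further on, 16 had a window and 6 a match. Irf7, Oasl1, Oasl2, Ifi44 and Ifi209 were without a match. A match is a run of letters and is not a measured binding site.

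Isg15 was found in most interferon-marker cells and Rsad2 in few. At least 1 UMI of Isg15 was present in 18 of 23 young sham cells (78.3%), 73 of 77 young tumour cells (94.8%), 37 of 47 old sham cells (78.7%) and 56 of 60 old tumour cells (93.3%). Ifit3 was found in 17, 48, 34 and 48 cells, and Ifit2 in 43.5%, 59.7%, 59.6% and 43.3%. These 3 genes thus carried the rule in every library. Ifit1 was found in 21.7%, 36.4%, 34.0% and 36.7%, and Rsad2 in 3, 20, 13 and 17 cells. The intervals of the ratios between libraries included 1 for each of the 5 genes in all 4 comparisons. These intervals are made for rare counts and are too wide for shares this high, so they cannot tell whether the libraries were alike. Of the 207 cells, 24 held UMIs of 1 of the 5 genes, 72 of 2, 62 of 3, 34 of 4 and 15 of all 5.

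The set stands close to its threshold. The sum over the 5 genes was exactly 3 in 7, 16, 14 and 16 cells, and 32, 53, 16 and 50 further microglia with a sum of 2 fell just outside. Sums above 10 were found in 6, 19, 10 and 17 cells, and the highest sums were 26, 86, 66 and 56. Interferon-marker cells held 39.5%, 70.4%, 76.9% and 63.5% of the UMIs of these 5 genes found in microglia passing the exclusions, but 11.47%, 12.4%, 17.6% and 21.2% of those found in all microglia.

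The label was checked against 18 homeostatic microglia genes that the rule did not use, such as Cx3cr1, Csf1r, P2ry13 and Fcrls. They took at least 2% of the UMIs in 20 of 23 young sham cells (87.0%), 36 of 77 young tumour cells (46.8%), 31 of 47 old sham cells (66.0%) and 35 of 60 old tumour cells (58.3%). In other microglia the shares of such cells were 96.5%, 95.4%, 94.8% and 93.7%. The young sham interferon-marker cells were closest to the other microglia and the young tumour cells farthest from them. Below 1% were 3, 22, 7 and 15 interferon-marker cells.

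**Figure D1:**
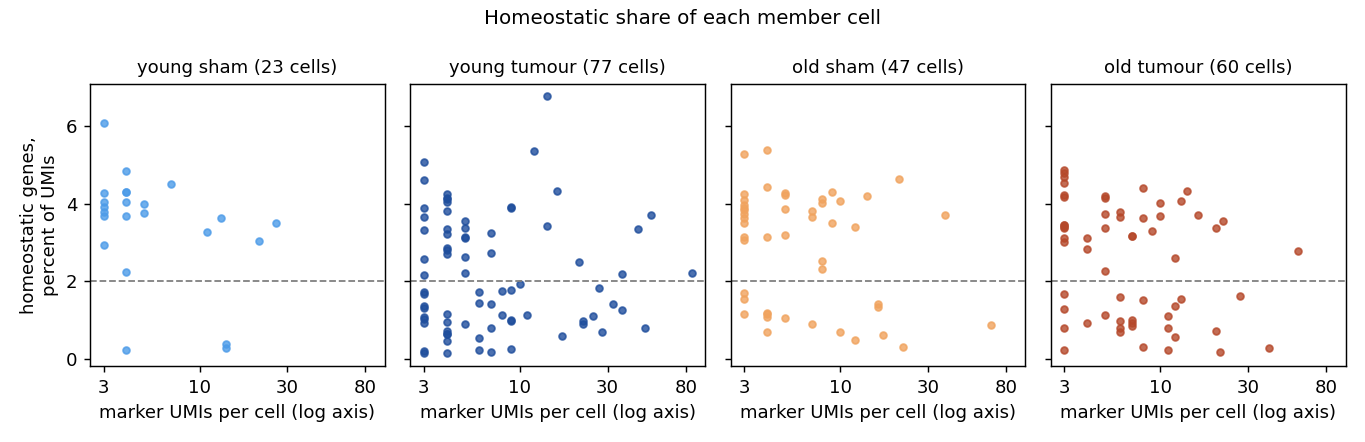
Each point is 1 interferon-marker cell; the x axis gives its UMIs of the 5 interferon genes (log axis) and the y axis the percent of its UMIs in the 18 homeostatic genes. The dashed line is at 2%: 20 of 23, 36 of 77, 31 of 47 and 35 of 60 cells lie at or above it, and cells with high interferon sums lie on both sides.

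The 85 cells under 2% had a median of 10033 UMIs and a median of 5 UMIs of the 4 microglia genes of the rule, against 4584.5 and 23.5 in the 122 microglia-rich cells. In 33 cells (1, 10, 8 and 14 by library) the marker list of another cell type held at least as many UMIs as the homeostatic list. It was that of choroid plexus in 16 cells, border-associated macrophages in 11, monocytes in 4 and erythroid cells in 2. These 33 cells held 4.08%, 19.3%, 45.5% and 48.7% of the UMIs of the interferon-marker cells. The 4 choroid plexus markers (Ttr, Kl, Folr1 and Clic6) summed to 444, 9131, 116105 and 99377 CPM (UMIs of a gene per 1000000 UMIs of the cells summed) in the interferon-marker cells, and to 636, 624, 552 and 697 CPM in the microglia-rich ones. Other markers were still present in the microglia-rich cells: border-associated macrophage markers summed to 858 CPM there in the young sham library (30.9 in other microglia with at least 2% homeostatic UMIs), and erythroid markers to 8466 CPM in the young tumour library (90.2 in the others). Their part in results on these cells was not tested. NK markers were at 0 in all 4 libraries, and the 7 T cell markers were at 0 in both sham libraries and at 247 and 95.4 CPM in the young and old tumour libraries, and all 7 were at 0 among microglia-rich cells. The data therefore go against the microglia label for part of the set, and results are given below for all interferon-marker cells and for the microglia-rich cells, a split made after the data had been seen.

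As a share of all microglia, interferon-marker cells were rarest in the young sham library. They made up 0.522% of all microglia in young sham mice (exact Clopper-Pearson 95% interval 0.331% to 0.782%), 2.16% with tumour in young mice (1.71% to 2.70%), 1.65% in old sham mice (1.22% to 2.19%) and 2.10% in old mice with tumour (1.61% to 2.70%). The young sham interval lay below the intervals of the other 3 libraries, which overlapped one another. The young tumour share was 4.15 times the young sham share (exact conditional interval 2.57 to 6.93), and the old sham share was 3.16 times the young sham share (1.88 to 5.46). In old mice the tumour share was 1.27 times the sham share (0.854 to 1.91), and with tumour the old share was 0.971 times the young share (0.681 to 1.38); both intervals included 1. Whether the effect of tumour differs with age could not be tested with 1 library per group.

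The young sham library also stayed lowest among the microglia-rich cells alone. They made up 0.454%, 1.01%, 1.09% and 1.23% of all microglia, so the young tumour share was 2.23 times the young sham share (1.26 to 4.07) and the old sham share 2.40 times (1.33 to 4.44). When every cell was thinned to 2000 UMIs, which leaves out 355, 318, 146 and 164 shallower microglia, the shares were 0.388%, 1.21%, 0.975% and 1.03%.

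**Figure D2:**
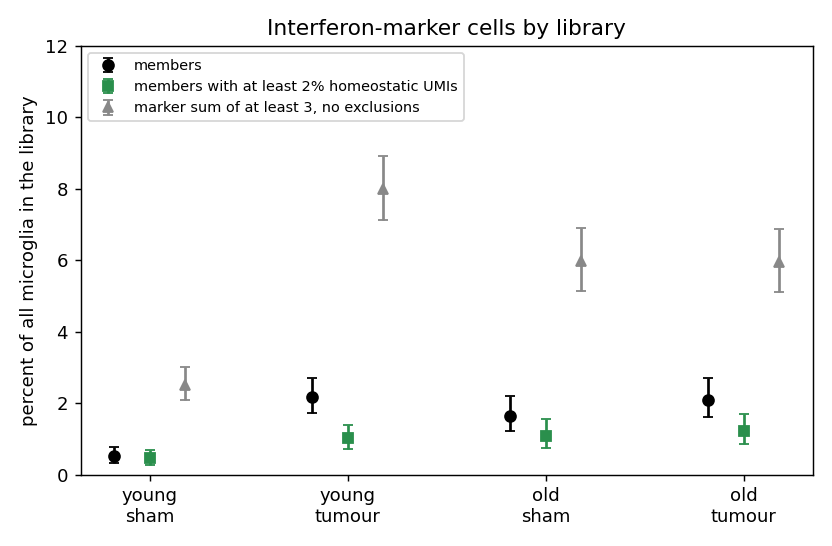
Percent of all microglia in each library (y axis) that were interferon-marker cells (circles), microglia-rich interferon-marker cells (squares) or microglia with at least 3 interferon-gene UMIs before exclusions (triangles); bars are exact 95% intervals. The young sham library is lowest in each series, at 0.522%, 0.454% and 2.52%.

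The exclusions removed more interferon-marked microglia than they kept, and the exclusion that removed most was not the same in every library. Before exclusions, 111, 284, 170 and 170 microglia had at least 3 UMIs of the 5 genes, which is 2.52%, 7.98%, 5.97% and 5.95% of all microglia. In the old sham library 100 of the 170 (58.8%) failed because they held more than 2 UMIs of the 3 cytokines. In the young tumour library 119 of the 284 (41.9%) failed on the disease-associated genes, and in the young sham library 62 of 111 (55.9%) failed on Cldn5, an endothelial tight junction gene. In the old tumour library 45 of 170 (26.5%) failed on the cytokines and 41 (24.1%) on Cldn5. On Hmga2, alone or with another exclusion, 1 of 111, 50 of 284 (17.6%), 3 of 170 and 0 of 170 failed. The old sham library lost most microglia altogether: 77.5%, 79.8%, 37.7% and 68.4% of microglia passed the exclusions. Against those that passed, the shares were 0.674%, 2.71%, 4.38% and 3.07%, and the old sham library then ranked highest, at 6.50 times the young sham share (3.87 to 11.2).

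Interferon genes were also common in microglia that failed a single exclusion of some kinds and rare for others. Among microglia that failed only the cytokine exclusion, 10 of 394 (2.54%) in young sham mice and 35 of 142 (24.6%) in young mice with tumour had at least 3 UMIs of the 5 genes. The same held for 73 of 1375 (5.31%) in old sham mice and 25 of 425 (5.88%) in old mice with tumour. Among microglia that failed only the disease-associated exclusion, the shares were 25.8% of 31, 51.9% of 79, 17.9% of 28 and 10.9% of 92. The young tumour library was highest in both classes and also deepest, with median depths of 4708, 5987.5, 5668 and 5636 UMIs in the cytokine class. In the disease-associated class the depths were 8754, 10099, 6407.5 and 8703 UMIs. There the interval of the young tumour to sham ratio included 1 (0.931 to 4.97). For Cldn5 alone the shares were 34.7% of 98, 42.4% of 66, 56.2% of 16 and 57.1% of 49, highest in the old libraries. Median depths there were 6552.5, 7296.5, 12633 and 11829 UMIs, and the intervals of both old to young ratios included 1. Deeper cells reach 3 UMIs more easily, and the part of depth in these shares was not tested. For the astrocyte genes alone the shares were 0.766%, 4.79%, 9.80% and 11.6%, and for the oligodendrocyte genes alone 1.61%, 3.64%, 0 of 46 (which allows up to 6.52%) and 7.69%. For Hmga2 alone 0 of 18 (which allows up to 16.7%), 1 of 32, 0 of 6 and 0 of 3 cells reached 3 UMIs.

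For background, among cells with oligodendrocyte UMIs and none of the 4 microglia genes, 1.26%, 2.31%, 1.59% and 2.67% reached 3 UMIs of the 5 genes, at median depths of 5241 to 6632 UMIs. The interferon-marker shares of 0.522%, 2.16%, 1.65% and 2.10% of all microglia, at median depths of 3401 to 5192 UMIs, were below this background in 3 libraries and just above it in the old sham library, but they count cells after the exclusions and the background does not. Without exclusions the microglia shares of 2.52%, 7.98%, 5.97% and 5.95% were above it in all 4 libraries, and among microglia with at least 2% homeostatic UMIs the shares of 1.10%, 3.32%, 4.37% and 3.405% were above it in all but the young sham library. The shares of microglia passing the exclusions, 0.674%, 2.71%, 4.38% and 3.07%, were likewise above it in all but that library. Cells with astrocyte UMIs and none of the 4 microglia genes gave 8.08%, 8.23%, 5.73% and 10.2%. The microglia shares without exclusions were above these in the old sham library only. Among endothelial cells, 42.0%, 31.8%, 45.4% and 41.5% reached 3 UMIs, above all these microglia shares, so the rule's genes are not particular to microglia.

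Beyond the 5 genes of the rule, interferon-marker cells carried a wider interferon programme, which was higher at higher marker sums, though not at every step. In microglia with at least 2% homeostatic UMIs, 54 other type I interferon-induced genes summed to 1266 CPM at 0 marker UMIs in the young sham library, 1519 in the young tumour library, 1633 in the old sham library and 1682 in the old tumour library. At 2 marker UMIs, just outside the rule, the sums were 3013, 5231, 3279 and 4235 CPM, and at 3, just inside, 5099, 7473, 6115 and 5903 CPM. At 4 to 5 marker UMIs they were 7796, 7331, 7976 and 6281 CPM, slightly below the step before in the young tumour library, and at 6 to 10 they were 11440 (1 cell), 10320, 10140 and 8864 CPM. Above 10 marker UMIs they were 16594, 16300, 16620 and 16925 CPM, from 4, 9, 4 and 7 cells, whose medians per cell were 13573, 15508, 16895 and 19507 CPM. With all cells in place of these the order broke more often: from 3 to 4 to 5 marker UMIs the sum fell from 5099 to 4520 CPM in the young sham and from 9255 to 6858 in the young tumour library. From 6 to 10 to above 10 it fell from 11440 to 8446 CPM in the young sham library and was level at 8647 and 8645 CPM in the old sham library. Cells with more UMIs pass a fixed sum more easily, and marker sum and depth share the same cells. The part of depth in these steps was not tested.

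**Figure D3:**
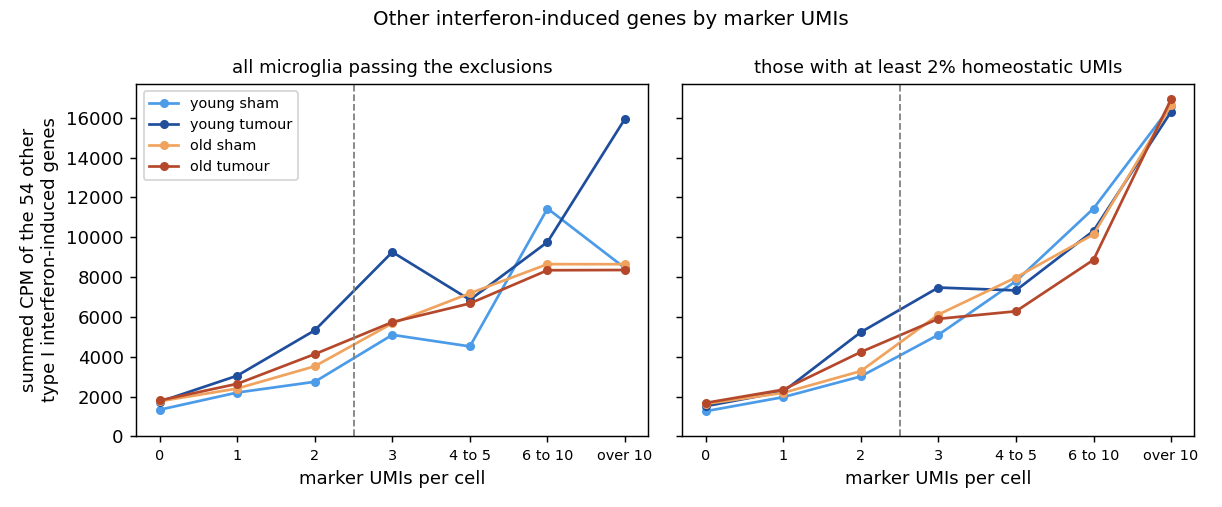
Summed CPM of 54 other type I interferon-induced genes (y axis) by the number of marker UMIs per cell (x axis), 1 line per library; the dashed line is the rule's threshold of 3. In cells with at least 2% homeostatic UMIs (right) the libraries climb from 1266 to 1682 CPM at 0 to between 16300 and 16925 CPM above 10 (4 to 9 cells per library), with a dip from 7473 to 7331 CPM in the young tumour library, while with all cells (left) the young tumour library reaches 15951 CPM and the others 8354 to 8645 CPM.

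Gene by gene, 178 of 10043 genes (1.77%) were at least 1.5-fold higher in interferon-marker cells than in other microglia in all 4 libraries, with each interval above 1, and 162 (1.61%) were lower. The rule made this contrast, so the counts only describe the cells. Of 41 measured type I interferon-induced genes outside the rule, 31 were among the higher genes and 0 among the lower, with median log2 ratios of 2.02, 2.48, 2.07 and 1.87 beside 0.37, −0.19, −0.18 and −0.19 over all genes compared. In microglia-rich cells 62 of 9516 genes (0.652%) were higher, 45 of them shared with the 178, and 1 (0.0105%) was lower. Of 37 type I genes measured there 31 were higher, and 28 of these were also among the 31 higher in all interferon-marker cells.

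Zbp1, a sensor of Z-form nucleic acids, was at 60.8, 306, 55.7 and 67.9 CPM in interferon-marker cells and at 2.38, 14.7, 2.61 and 4.56 CPM in other microglia. The ratios were 25.6, 20.8, 21.3 and 14.9. Irf7, the transcription factor that amplifies type I interferon production, was at 97.3, 274, 76.2 and 99.0 CPM against 3.92, 16.6, 4.51 and 8.79 CPM. Both genes were highest in the young tumour library in either kind of cell. Usp18, a protease that removes ISG15 and restrains the type I receptor, was at 66.9, 60.3, 90.9 and 58.7 CPM against 2.38, 4.76, 5.46 and 5.71 CPM. Ifitm3, a membrane protein that blocks virus entry, was at 663, 1616, 1061 and 1157 CPM against 68.1, 148, 75.0 and 118 CPM. The intervals of all 4 ratios of Usp18 between libraries included 1, and Ifitm3 was again highest with tumour in young mice.

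The genes chosen by rank hold several other antiviral families. Oasl2, of the oligoadenylate synthetase family, was 20.3-, 17.5-, 16.8- and 9.43-fold higher. Slfn5, a Schlafen family member, was 23.1-, 14.2-, 11.6- and 8.29-fold higher, and Rtp4, a receptor transporter induced by interferon, 14.7-, 6.67-, 10.3- and 7.35-fold. The p200 family members Ifi204, Ifi209 and Ifi211 and the genes Oasl1, Oas3, Ifi44, Iigp1, Ifit3b, Ifi27l2a and Ifitm2 were also in this group, as was the chemokine Ccl12. Oas3 rested on 4 to 37 UMIs per library. A further 7 of the 25 genes, Emb, Col8a2, Mgst1, Slc26a7, Bmp6, Lbp and Mgp, came from 1 to 15 cells per library and had at most 5 UMIs per library in microglia-rich cells. Mgp, an extracellular matrix protein, had 841, 175, 291 and 351 UMIs in 3, 5, 4 and 4 interferon-marker cells, and 1, 0, 0 and 0 UMIs in microglia-rich ones.

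**Figure D4:**
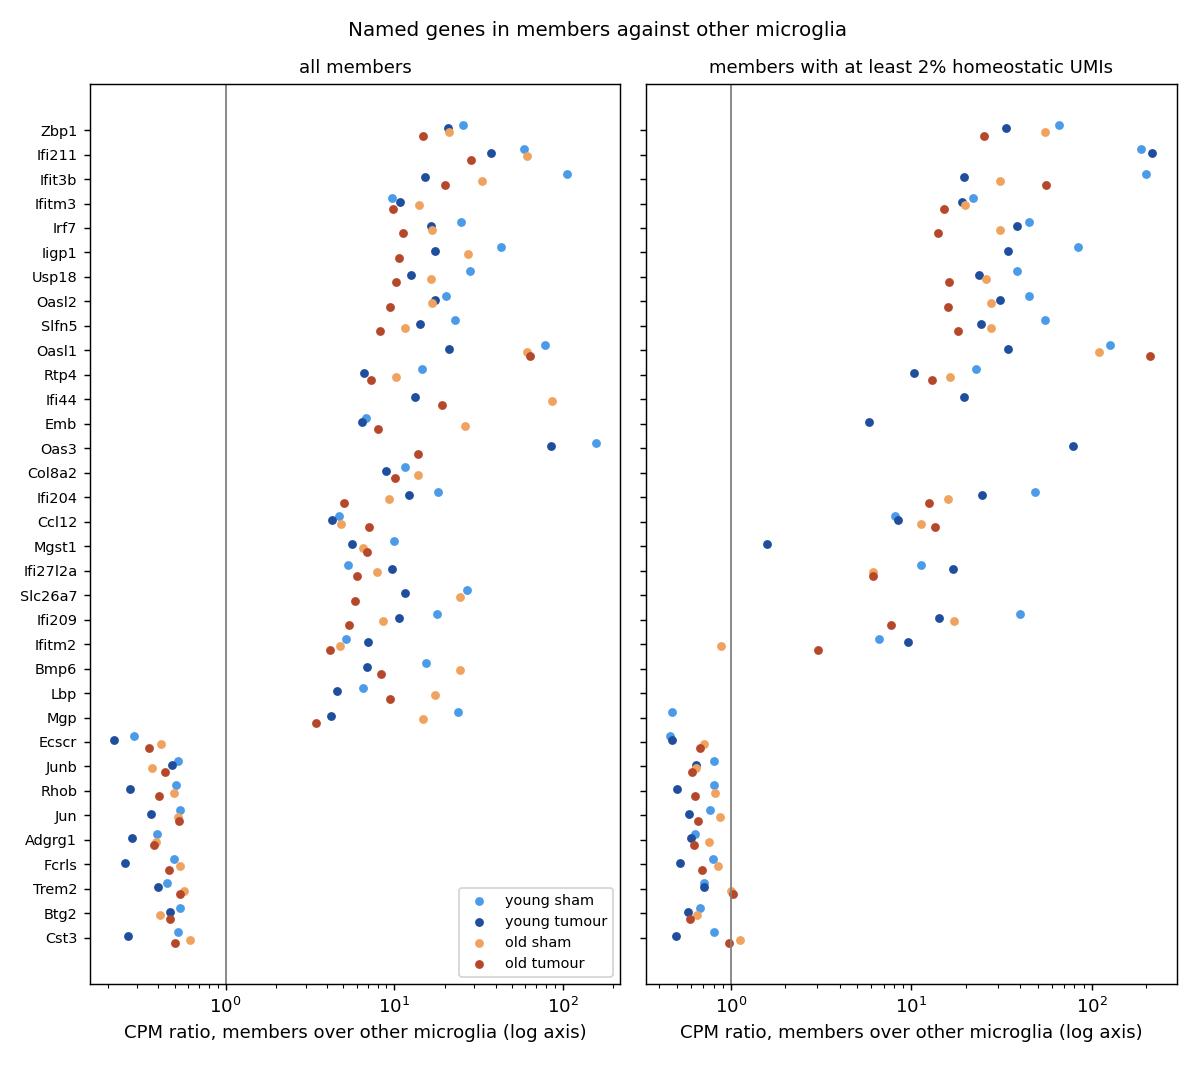
CPM ratio of interferon-marker cells over other microglia (x axis, log scale) for the 25 genes ranked highest and 9 of the 10 ranked lowest, 1 point per library. The interferon genes stay to the right of 1 when only cells with at least 2% homeostatic UMIs are used (right panel), apart from Ifitm2 in the old sham library, while most lower genes move closer to 1; a ratio with a count of 0 on either side is not drawn.

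Some transcription factors and restraining genes of the pathway were higher, and its receptors were not. Of 10 measured STAT and IRF factors, 3 were higher in all 4 libraries, Stat2 and Irf7 among them, and of 7 negative regulators outside the rule 2 (Usp18 and Trim30a). All of these are also on the type I list. Stat2 showed ratios of 4.17, 5.13, 3.23 and 4.30, whereas Irf9, its DNA-binding partner, showed 1.95, 1.62, 1.37 and 1.68. Irf9 was called higher, by fold and interval together, in the 2 tumour libraries only. Its young sham ratio was the highest and above 1.5, so it did not miss the call by its size. Of 7 receptor subunits and kinases, 0 were higher, and 1 was lower, the interferon gamma receptor subunit Ifngr1. Among 15 nucleic acid sensors and adaptors 3 were higher, Zbp1 and the RNA helicases Ifih1 (3.65, 3.60, 2.06 and 1.81) and Ddx58 (4.83, 1.87, 2.70 and 1.91), and 1 was lower, Tmem173, which encodes the adaptor STING. In microglia-rich cells 0 of 7 receptor subunits and kinases were higher and 0 lower, and of 15 sensors and adaptors 5 were higher and 0 lower. The lower calls of Ifngr1 and Tmem173 thus did not hold in microglia-rich cells.

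Interferon-marker cells carried almost no RNA of the interferons themselves. Over all kept cells, Ifng had 20, 585, 85 and 112 UMIs, Ifnb1 had 3, 1, 9 and 16, and the Ifna genes had 0 except for 1 UMI of Ifna12 in the young sham library. Interferon-marker cells held 0, 3, 0 and 1 UMIs of Ifng and 0 of Ifnb1. Other microglia held 3, 0, 9 and 16 UMIs of Ifnb1. With so few UMIs, the 0 cannot tell whether interferon-marker cells express Ifnb1 less than other microglia. The young tumour library thus held the most Ifng, mostly outside these cells.

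The homeostatic genes moved the other way, and this depended on which cells were counted. Of the 18, 11 were lower in all 4 libraries among all interferon-marker cells (median log2 ratio −1.01) and 0 among microglia-rich cells (median −0.24), a comparison fixed in part by the split itself. Fcrls, an Fc receptor-like gene typical of mouse microglia, had ratios of 0.496, 0.254, 0.538 and 0.461 in all cells and 0.798, 0.523, 0.846 and 0.690 in microglia-rich ones. Adgrg1, Trem2, Cst3 and Ecscr and the immediate early genes Junb, Jun, Rhob and Btg2 were also among the 10 ranked lowest. In the microglia-rich cells of the young tumour library, P2ry12, the purinergic receptor of the rule, was at a ratio of 0.500, against 0.996 in young sham cells.

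Between the young libraries, most antigen presentation genes were higher in interferon-marker cells with tumour than in sham cells. Among 5476 genes that reached 20 UMIs in the 2 libraries together, 477 (8.71%) were at least 1.5-fold higher with tumour and 902 (16.5%) lower. Scaled to a median log2 ratio of 0 in place of −0.21, the counts were 682 and 626. In microglia-rich cells 222 of 2335 genes (9.51%) were higher and 317 (13.6%) lower, and in other microglia 454 of 13213 (3.44%) and 580 (4.39%). The young sham profile leans on few cells: 3 of 23 held 45.2% of its UMIs, against 12.7% for the top 3 young tumour cells, and its cell cycle genes summed to 1289 CPM in all and 117 CPM in microglia-rich cells. Of 18 measured MHC class I presentation genes 16 were higher and 0 lower (median log2 ratio 1.86). Of 8 class II genes 7 were higher and 0 lower (median 5.32, with a count of 0 in 1 library entered as 3). In the microglia-rich cells the counts were 12 of 16 (median 1.08) and 6 of 6 (median 4.97). In other microglia 9 of 20 class I and 6 of 10 class II genes were higher with tumour and 0 lower, with medians of 0.55 and 2.05. The difference between the cell classes was not tested.

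H2-Ab1, the beta chain of the class II molecule I-A at chr17:34257689-34269419, showed this most plainly. It had 3 UMIs in 2 of 23 young sham cells, 3331 UMIs in 58 of 77 young tumour cells, 14 in 7 of 47 old sham cells and 127 in 15 of 60 old tumour cells. This is 18.2, 4902, 41.0 and 233 CPM. The young tumour library stands far above the other 3, at 269 times the young sham level (91.9 to 1304). In microglia-rich cells the levels were 10.6, 1197, 20.97 and 37.3 CPM and the ratio 113 (20.1 to 4478), and in other microglia 50.7, 521, 70.2 and 100 CPM. Cd74, the invariant chain that guides class II molecules, followed the same order with 2, 8609, 77 and 336 UMIs (1 cell held 87.0% of those in old sham mice), and in microglia-rich cells 0, 842, 4 and 38 UMIs. H2-Aa, the alpha chain of I-A, had 0, 2994, 24 and 133 UMIs, and H2-Eb1, a beta chain of I-E, had 1, 3018, 6 and 106.

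Class I genes showed smaller ratios in more of the cells. H2-K1, a classical class I heavy chain, was at 553, 2647, 460 and 721 CPM in interferon-marker cells and was found in 17 of 23, 77 of 77, 42 of 47 and 57 of 60 cells. The young tumour level was 4.79 times the young sham level (3.88 to 5.98), 3.21 times in microglia-rich cells (2.52 to 4.14) and 2.46 times in other microglia. H2-D1 was 4.02 times as high, and B2m, the shared light chain, 2.53 times (2.22 to 2.88).

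Among the type I genes, 18 of 49 were higher with tumour in young mice and 0 lower (median log2 ratio 0.67). In microglia-rich cells 5 of 35 were higher and 1 lower (median 0.08), beside 9.51% and 13.6% of all genes there, and with all cells thinned to 2000 UMIs the median was −0.11, so this shift did not hold under both alternatives. Other microglia of the same libraries showed 23 of 48 higher and 0 lower (median 0.47). The 15 interferon-induced GTPases, which attack membranes of intracellular pathogens, gave 7 higher and 0 lower of 13, and 2 and 0 of 7 in microglia-rich cells. Their sum went from 541 to 1232 CPM in all interferon-marker cells and from 731 to 1021 CPM in microglia-rich ones. Iigp1 was at 36.5, 196, 58.6 and 51.4 CPM and Gbp2 at 54.7, 174, 32.2 and 23.8 CPM, both highest in the young tumour library. Zbp1 was 5.04 times as high with tumour in young mice (2.68 to 10.7), and 2.84 times in microglia-rich cells (1.45 to 6.19).

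Chemokines were higher with tumour in young mice for 7 of 10 genes and lower for 2 (5 and 2 of 8 in microglia-rich cells). Ccl5, which draws T cells, had 3, 1698, 5 and 216 UMIs. In the young tumour library these came from 39 of 77 cells, and in the old tumour library 1 of 60 cells held 98.6% of them. The young ratio was 137 (46.8 to 665), and 45.5 (15.4 to 222) in microglia-rich cells. Markers of other cells moved with these results: monocyte markers were at 140, 1180, 179 and 251 CPM in interferon-marker cells and 244, 342, 105 and 90.5 CPM in microglia-rich ones, with Ly6c2 at 0, 183, 0 and 34 UMIs in the former. Their part in the class II and Ccl5 differences was not tested.

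In old mice, fewer genes of these cells passed the criterion between tumour and sham. Among 5604 genes, 164 (2.93%) were higher and 277 (4.94%) lower, or 233 and 186 when scaled to a median log2 ratio of 0. In microglia-rich cells 60 of 2586 (2.32%) were higher and 165 (6.38%) lower. In the old sham library 3 of 47 cells held 36.9% of the UMIs. Type I genes gave 2 higher and 0 lower of 43 (median −0.02), and class I genes 2 and 0 of 18 (median 0.06). Class II genes gave 5 higher and 0 lower of 7 (median 1.45), 3 of 4 in microglia-rich cells. H2-Ab1 was 5.68 times as high (3.26 to 10.7), but 1.78 times (0.406 to 10.7) in microglia-rich cells, where it had only 3 and 7 UMIs. Cd74 was 2.73 times as high (2.13 to 3.54), with most old sham UMIs in 1 cell as given above, and 7.23 times (2.60 to 27.9) in microglia-rich cells, on 4 and 38 UMIs. H2-K1 was 1.57 times as high (1.30 to 1.90) and 1.53 times in microglia-rich cells (1.20 to 1.97). The Ccl5 ratio of 27.0 rested on 1 cell and was 0.457 (0.071 to 2.35) in microglia-rich cells. The 4 libraries share samples across comparisons, and whether tumour acted differently at the 2 ages was not tested.

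Comparing ages with tumour, the antigen presentation genes were lower in old than in young interferon-marker cells. Among 6648 genes, 766 (11.5%) were higher in old mice and 755 (11.4%) lower. Of 20 class I genes 0 were higher and 17 lower (median −1.17), of 8 class II genes 0 and 7 (median −4.27), and of 13 GTPases 0 and 11 (median −1.68). In microglia-rich cells 8 of 17, 4 of 7 and 5 of 7 were lower and 0 higher, beside 139 of 2841 genes lower (4.89%) and 162 higher (5.70%). H2-Ab1 in old mice was 0.0475 times the young level (0.0395 to 0.0567), 0.0311 times in microglia-rich cells and 0.193 times in other microglia. H2-K1 was 0.272 times the young level, 0.415 times in microglia-rich cells and 0.632 times in other microglia. Type I genes outside the rule were lower for 21 of 50 and higher for 1 (median −0.57), but in microglia-rich cells 4 of 37 were higher and 3 lower (median 0.02). Monocyte markers were lower in old mice with tumour, at 251 against 1180 CPM (90.5 against 342 in microglia-rich cells). Choroid plexus markers were higher, at 99377 against 9131 CPM (697 against 624). The part of such cells in this comparison was not tested.

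Among sham mice, 304 of 4001 genes (7.60%) were higher in old interferon-marker cells and 478 (11.9%) lower, or 377 and 354 when scaled to a median log2 ratio of 0 in place of −0.15. In microglia-rich cells 77 of 1971 (3.91%) were higher and 86 (4.36%) lower. Type I genes gave 6 higher and 2 lower of 38 (median 0.11), and class I genes 0 and 0 of 14. Ccl12, a monocyte chemoattractant of mouse, was among the genes that differed with age. It was at 559, 745, 1131 and 1273 CPM, higher in old than young mice in sham (2.02 times, 1.61 to 2.57) and with tumour (1.71 times, 1.52 to 1.92). In microglia-rich cells it was at 975, 1289, 2209 and 1725 CPM, and the ratios were 2.27 in sham and 1.34 with tumour, the second under the 1.5-fold criterion. Other microglia gave 1.96 and 1.04. Ccl12 came from 14, 48, 28 and 42 cells, and is an example picked after its values were seen, as are the list genes named above beyond the ranked ones.

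The genes ranked highest with age were of other cells. Ttr, the transthyretin carrier made by choroid plexus, led with 438, 8850, 115308 and 98363 CPM in interferon-marker cells, but was at 625, 619, 552 and 687 CPM in microglia-rich ones. Ccl24, Sostdc1, Folr1, Krt18, Cd209f, Fxyd1 and Cd209b followed and had 0 to 2 UMIs per library in microglia-rich cells. The genes ranked lowest with age included Ube2c, Ccnb2, Smc4, Pclaf, Cdca3 and Birc5, which act in cell division, with Vim and Fxyd5. Choroid plexus and cell division genes moved with the age comparisons, in 1 to 14 cells per library for most of these genes, and their part in other differences with age was not tested.

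Immediate early genes were lower with tumour at both ages. Of 24 and 25 measured in young and old mice, 18 and 10 were lower and 1 and 1 higher (medians −1.24 and −0.56), and in microglia-rich cells 20 of 23 and 15 of 23 were lower. Jun, a subunit of the AP-1 transcription factor, was at 2377, 924, 2787 and 1300 CPM, with tumour ratios of 0.389 (0.342 to 0.442) in young and 0.467 (0.423 to 0.515) in old mice. Atf3, a stress-induced factor, was at 511, 121, 484 and 169 CPM, and Egr1, another early response factor, at 663, 134, 407 and 198 CPM. Both sham libraries were above both tumour libraries for each of the 3 genes. In other microglia 21 of 26 genes of this list were lower with tumour at each age, beside 4.39% of all genes in young and 358 of 12075 (2.96%) in old mice, where 541 (4.48%) were higher. These genes also respond to tissue dissociation, whose part was not tested.

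**Figure D5:**
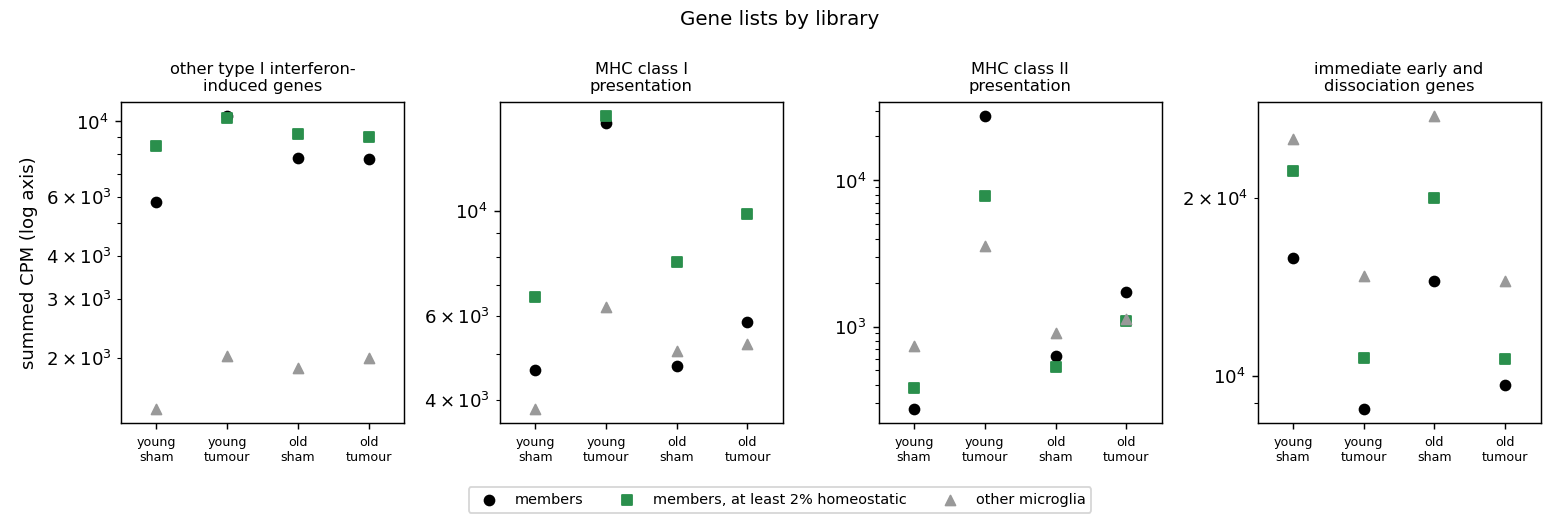
Summed CPM (log axis) of 4 gene lists in each library for interferon-marker cells (circles), microglia-rich interferon-marker cells (squares) and other microglia (triangles). Type I genes are above the other microglia in all 4 libraries, class II genes peak in the young tumour library at 27430 CPM (7884 in microglia-rich cells), and immediate early genes are lower in both tumour libraries than in both sham libraries.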

How the data were processed

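Single-cell 3′ UMI counts per gene were deposited by the authors as 1 filtered matrix per library, whole numbers that were not normalized, per the file headers. The matrix headers name Cell Ranger 6.1.0, whereas the submitters' processing notes name Cell Ranger 3.0.2, Seurat 2.3.4 and mm10. Barcodes with at least 500 UMIs, 200 genes and at most 20% mitochondrial UMIs were kept. The members and gene lists were chosen with earlier results of these data known. UMIs were summed over cells within a library and scaled to CPM, and ratios carry exact conditional Poisson 95% intervals; a gene was called when it was 1.5-fold or more higher or lower with the interval on the same side of 1 and at least 20 UMIs over the sets compared, and a count of 0 was set to 3 in a ratio. UMIs of 1 cell are not independent, so these intervals are narrower than the spread between cells or mice would give.

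Genes named by rank had at least 30 UMIs over all members and the interval bound nearest to 1 that lay farthest from it: 25 higher and 10 lower against other microglia, and 8 each way by age and by tumour; mitochondrial, ribosomal, hemoglobin and Y-linked genes, Xist and provisional gene names were left out. Mx1, Mx2, Pyhin1 and Clec7a were not analysed here, and some items are not reported here. Gene positions are from GENCODE M21 and promoters from RefSeq. The ratio intervals and calls were tested on simulated counts without spread between cells, so that test does not cover UMIs that cluster in few cells. Cell selection, thinning and doublet scoring were not simulated. Python 3.11.15, numpy 2.4.6, scipy 1.17.1, pandas 2.3.3 and scanpy 1.11.5 (Scrublet, 0.8% doublets per 1000 barcodes) were used. Alternatives covered marker sums, exclusions, denominators, cell and gene filters, scaling, depth, doublets and cell weight.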

Additional observations from a re-analysis of the deposited data

Results flagged for a closer look

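In 5 cases the difference between old and young interferon-marker cells ran in opposite directions in sham mice and in mice with tumour. With 1 library per group, the difference between the 2 conditions was not tested. The median log2 ratio of the MHC class II presentation genes was 1.12 over 4 genes in sham mice and −4.27 over 8 genes with tumour. The sham value did not hold its direction: it was −0.61 after thinning to 2000 UMIs, 0.033 without doublet-scored cells and 0.22 in microglia-rich cells, on 1 or 2 genes each. H2-Aa, a class II alpha chain, had 0 UMIs in the young sham library. With 3 in place of that 0, its old to young ratio was 3.86 in sham mice, and it was 0.0554 with tumour. Ifi27l2a, an interferon-induced mitochondrial protein, was 3.05 times as high in old sham mice and 0.558 times with tumour, and 1.499 and 0.403 times in microglia-rich cells. Mgp, which came from 3 to 5 cells per library, was at 0.167 and 2.499 times, and Slc26a7, an anion transporter from 1 to 5 cells per library, at 0.121 and 2.99 times.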

How the results depend on the processing

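No paired analysis was possible because each group is 1 library. The use of microglia-rich cells throughout, and the mean of each cell's CPM against other microglia, were chosen after seeing the data. Counting each pair of a compared value and an alternative once, the value kept its direction and size in 190 pairs, moved in 83 and reversed in 2; for single genes the pairs numbered 696, 217 and 12; except where fewer cells, UMIs or genes enter by construction, the cause was not tested.

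Shares of all microglia were, in the order of the report, 1.25%, 3.65%, 2.21% and 3.85% at a marker sum of at least 2, where the old to young sham ratio was 1.77, and 0.204%, 1.24%, 0.914% and 1.44% at 5. They were 2.52%, 7.98%, 5.97% and 5.95% without exclusions, and 1.21%, 0.975% and 1.03% in the last 3 libraries after thinning. Of microglia passing the exclusions they were 2.71%, 4.38% and 3.07% in those 3, with ratios of 6.50 (old to young sham) and 0.701 (tumour to sham, old). As a share of microglia with at least 2% homeostatic UMIs, the microglia-rich interferon-marker cells were 1.18%, 1.21% and 1.42% in the same libraries, with a young tumour to sham ratio of 2.37.

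Against other microglia, 178 higher and 162 lower genes became 62 and 1 in microglia-rich cells and 44 and 1 after thinning. The lower genes numbered 102 without doublet-scored cells, 30 at 1000 UMIs and 10% mitochondrial and 14 by the mean of each cell's CPM. Mgp turned from a median ratio of 9.58 to 0.904 in microglia-rich cells.

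In microglia-rich cells, higher and lower genes numbered 77 and 86 (age, sham), 162 and 139 (age, tumour), 222 and 317 (tumour, young) and 60 and 165 (tumour, old). List medians there were 0.22 for class II (age, sham), 0.023 for type I (age, tumour) and 1.08 for class I (tumour, young). Ttr turned from 263.5 to 0.883 (age, sham), Mt1 from 0.484 to 1.13 (tumour, young), and Ccl5 from 27.0 to 0.457 and Ccl3 from 0.535 to 1.23 (tumour, old).

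After thinning, the counts were 64 and 51, 147 and 151, 174 and 161, and 50 and 94 in that order. All gene comparisons after thinning used cells chosen before it. Class II medians were −0.61 (age, sham, reversed), −3.11 (age, tumour) and 3.02 (tumour, old), and type I medians 0.10 (age, tumour) and −0.11 (tumour, young, reversed). Mt1 turned to 2.46 (tumour, young). Fxyd1 went from 19.4 to 0.833 (age, sham) and Cd3d from 3.47 to 0.675 (tumour, young), and both are counted as reversed above. In both cases a young sham count of 0 was entered as 3 before and after thinning. These 2 ratios therefore do not show a change of direction.

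Without exclusions, the counts were 1291 and 1976, 3160 and 1743, 1787 and 3180, and 910 and 569. Class II medians were 1.72, −3.13, 3.77 and 0.25, and immediate early medians 1.25 (age, sham) and −1.15 (tumour, old). Fxyd5 turned from 0.340 to 2.07 (age, tumour) and Ccl8 from 5.28 to 0.911 (tumour, old).

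By the mean of each cell's CPM, old mice gave 385 higher and 636 lower genes with tumour, class II medians were −3.24 (age, tumour) and 2.55 (tumour, old), the class I median 1.11 (tumour, young) and Mt1 1.21 (tumour, young). Without doublet-scored cells, class II medians were 0.033 (age, sham) and 3.94 (tumour, old), and Ccl5 was 0.405 (tumour, old). At least 10 UMIs per gene gave 721 lower genes (age, sham). At least 50 gave 188 and 227 (age, sham), 466 higher (age, tumour), 492 lower (tumour, young) and 94 and 159 (tumour, old). The stricter cell filter gave 486 lower genes (age, tumour). With 23 young sham cells and 164515 UMIs, genes of low level cannot be compared there.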

Other observations

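Among the negative regulators of interferon signalling, Socs3, an inhibitor of JAK-STAT signalling, was lower in old than in young interferon-marker cells in both conditions; it was picked after its values were seen. It stood at 273.5, 168, 82.1 and 49.5 CPM, from 8, 45, 15 and 18 cells. The old to young ratio was 0.300 in sham mice (0.180 to 0.491) and 0.295 with tumour (0.186 to 0.452). In microglia-rich cells the ratios were 0.267 and 0.456, and in other microglia 0.965 and 0.772. Of the other regulators measured, 0 of 6 were called with age in sham mice, and with tumour 2 of 7, Socs1 and Ptpn6, were lower.

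Disease-associated microglia genes outside the rule were higher with tumour for 7 of 15 and lower for 2 in young mice (median log2 ratio 0.71), and for 3 and 0 of 15 in old mice (median 0.19); in microglia-rich cells the counts were 3 and 0 of 11, and 3 and 0 of 13. Apoe, a lipid carrier on this list, was at 2444, 25737, 10799 and 13097 CPM, and at 4196, 15787, 1321 and 7500 CPM in microglia-rich cells. The old to young sham ratio was 4.42 in all and 0.315 in microglia-rich cells; the young sham UMIs of Apoe numbered 402 and 396 in these sets and the old sham UMIs 3685 and 189. In the young sham library 1 cell held 77.6% of the Apoe UMIs. Complement genes, led by C1q subunits in microglia, summed to 27127, 32895, 29555 and 33475 CPM in microglia-rich cells and to 27987, 27724, 25510 and 26879 CPM in other microglia. In all interferon-marker cells the sums were lower than in other microglia, at 15664, 23362, 16520 and 17168 CPM.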
